A study of Mus musculus with 24 samples.

Results

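Rax-GFP-positive cells of optic vesicle (OV) organoids were compared between day 4 and day 5 of culture, across all genes. The comparison used 6 of the 24 libraries of the series, 3 from each day, chosen by the day and the GFP gate in their labels and by no measured value. The organoids were grown from mouse embryonic stem cells of the line Rx-GFP K/I EB5, which carries GFP in the Rax locus, by plating 4500 cells per well in a low-adhesion plate on day 0 and adding growth factor-reduced Matrigel to 2% on day 1. Each sample pooled 24 organoids that were dissociated and sorted for live single cells, and on days 4 and 5 also for GFP. The gate took in cells of high or moderate GFP, and some of those with low GFP were sorted into the GFP-negative samples. The remaining 18 libraries were live cells of days 0 to 3, not sorted on GFP, and GFP-negative cells of days 4 and 5, with 3 libraries in each of the 8 groups. The labels name no drug and no further mutation for any group, and they give the differentiation medium as supplemented GMEM with 1.5% KOSR, a serum replacement. The methods of the study reserve that medium for knockout organoids and name a chemically defined one without growth factors for the initial organoids, so the medium of these samples was not settled here. All samples came from 1 reporter line, so the values describe that line, and each library is an average over 24 organoids. Unless another fit is named, the p-values and standard errors below use a spread shared by such pooled triplicates of all 8 groups. It is not the spread of the 6 compared libraries alone.

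The eye field is the patch of anterior neural plate from which the eyes form, and the homeobox gene Rax marks it. In the embryo, the eye field folds out into paired optic vesicles, in which domains for neural retina, retinal pigment epithelium and optic stalk and a dorsal-ventral and a nasal-temporal axis are set up by transcription factors and by BMP, Wnt, FGF, Hedgehog and retinoic acid signals. Cells that enter this path leave the pluripotent state, in which Pou5f1, Nanog and their partners are expressed.

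The unit throughout is the DESeq2-normalized count per gene that the authors deposited. The 6 libraries held 42450322 to 44139351 normalized counts, from an estimated 38500000 to 50400000 assigned reads, and mitochondrial transcripts took 1.97% to 3.64%. Spearman correlations over genes were 0.9846 to 0.9927 between libraries of the same day and 0.9764 to 0.9846 between days. The gate was set on each day, so a change within cells and a change in which cells lie within the gate cannot be told apart, and in such pooled samples fewer cells of a type and less RNA per cell cannot be told apart either. Rax, on which the gate rests, had 9967, 9609 and 9099.8 on day 4 and 8827, 8075 and 8921 on day 5, against 412 to 1018 in the 6 GFP-negative libraries. Lhx2, Pax6 and Six3, which also define the eye field, were at 7774 or more in all 6 GFP-positive libraries.

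A gene was called where its difference passed the thresholds of the study, which ask for more than 1.5 log2 units in either direction at an adjusted p below 0.001, in a limma fit of log2(normalized count + 1) with Benjamini-Hochberg adjustment. By this rule, 125 of the 21005 genes tested (0.595%) were higher on day 5 and 187 (0.890%) were lower. The words rose and fell are used below for the wider set at an adjusted p under 0.05, in which 959 genes (4.57%) rose and 1100 (5.24%) fell. Genes of the 2 called sets changed by medians of 2.30 and -2.11 on the log2 scale, where the median over all genes tested was 0.00. In each called gene the values of the 2 days did not overlap, as was the case for 17.6% of all genes tested with day 5 higher and for 15.8% with day 5 lower. Where only the 6 libraries compared were fitted, 36 genes were called higher and 31 lower, so that the higher genes made up 53.7% of the calls, against 40.1%. With a pseudocount of 5 in place of 1, that share was 51%. Of the called genes, 93.6% of the higher and 92.5% of the lower set were protein-coding. The calls of higher genes numbered 69 without day 4 replicate 1, 81 without day 5 replicate 1 and 71 without day 5 replicate 3, and the genes that rose numbered 612 without day 4 replicate 1. Without replicate 1 of day 0, a library that enters only the shared estimate of the spread, 1598 genes rose, the 959 among them.

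Among 10 eye-field transcription factors 4 rose, 1 fell and 5 passed in neither direction, with a median log2 change of 0.58. Six6 and Tbx2, both regulators of optic vesicle and retina development, and Nr2e1 (Tlx) were called higher, and Hesx1, a repressor of the anterior forebrain, was called lower. Six6 (ENSMUSG00000021099, chromosome 12 from 72939892 to 72944899, mm10) had 192, 245 and 196 on day 4 and 5379, 4904 and 6366 on day 5. The groups lay far apart, and the log2 change was 4.71 ± 0.46 (SE, limma adjusted p = 4.86e-07), a 26.3-fold difference of the means. Tbx2 (ENSMUSG00000000093, chromosome 11 from 85832551 to 85841948) had 9.09, 14.7 and 16.3 on day 4 and 449.6, 555 and 586 on day 5, a log2 change of 5.24 ± 0.44 (limma adjusted p = 6.55e-08). Nr2e1, an orphan nuclear receptor of neural progenitors, had 249.9, 224 and 229 on day 4 and 1463, 1802 and 1371 on day 5 and changed by 2.71 ± 0.50 (limma adjusted p = 0.000937). This call was lost in each of the 6 fits that left out 1 of the 6 libraries, while the rise at an adjusted p under 0.05 was kept in all of them.

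**Figure D1:**
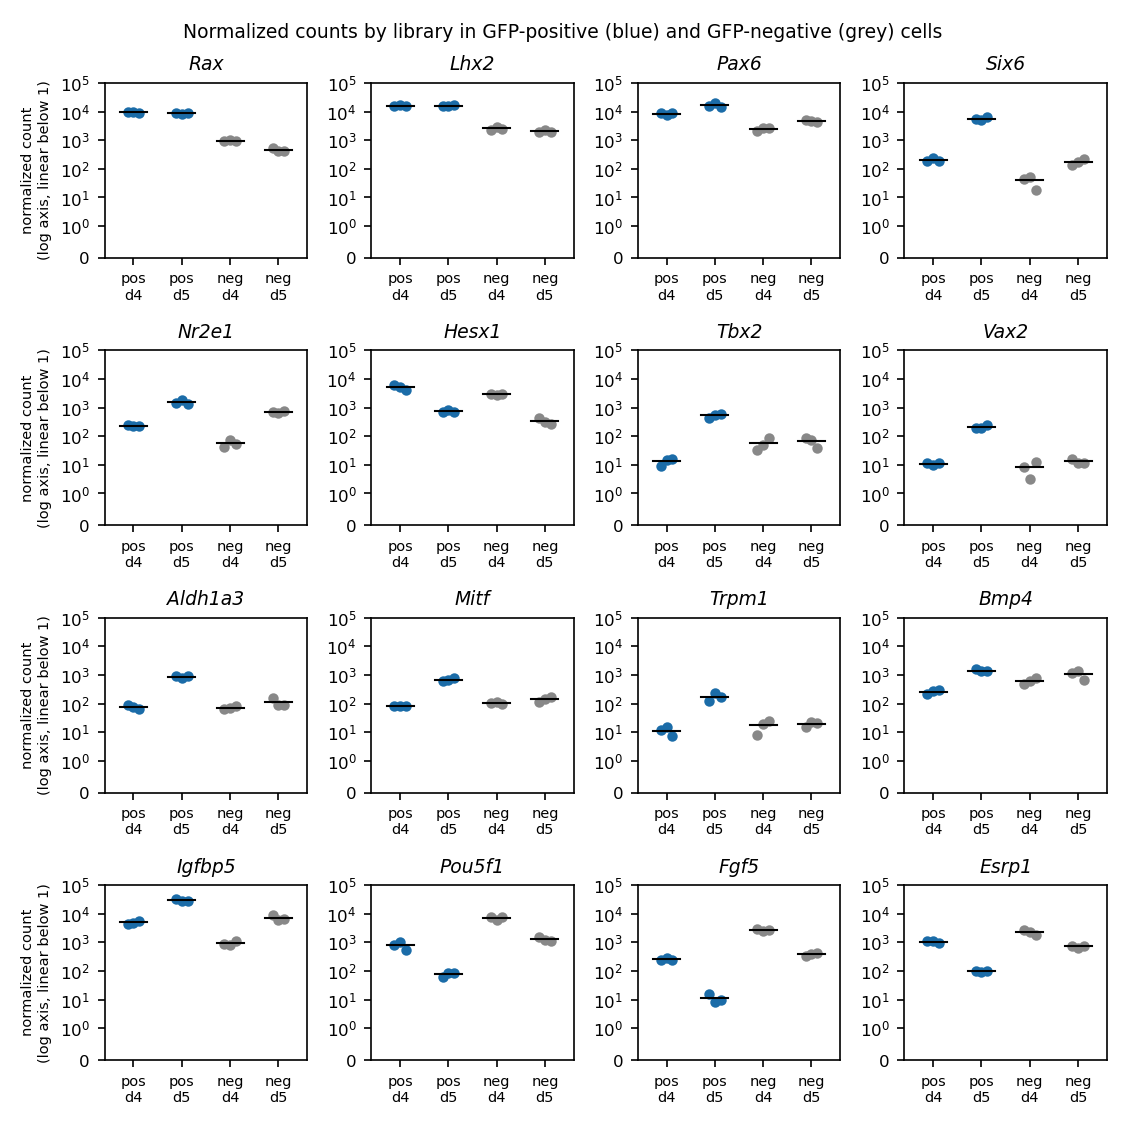
Normalized count (log axis, linear below 1) of 16 genes in each library of GFP-positive (blue) and GFP-negative (grey) cells on days 4 and 5. Points are libraries, 3 per group, and lines are group means. In GFP-positive cells Rax and Lhx2 lie at like levels on both days, Six6, Tbx2, Vax2, Aldh1a3, Mitf and Trpm1 are higher on day 5, and Hesx1, Pou5f1, Fgf5 and Esrp1 are lower.

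Hesx1 (ENSMUSG00000040726, chromosome 14 from 26994416 to 27002329) moved the other way, with 5949.7, 5061 and 4259.7 on day 4 and 728, 845 and 703 on day 5. Its level fell by 2.74 on the log2 scale (limma adjusted p = 1.03e-08), and the call was kept in all 6 fits without 1 library. Rax and Lhx2 did not pass the test. Rax changed by -0.15 ± 0.25 (limma adjusted p = 0.852) and Lhx2, a LIM-homeobox gene needed for the optic vesicle, by 0.00 ± 0.30 (limma adjusted p = 1), with 95% intervals of -0.68 to 0.38 and -0.62 to 0.61. Lhx2 had 16110.2, 16692 and 15182 on day 4 and 16154, 15246 and 16488 on day 5, and its values overlapped between the days. Where only the 6 libraries compared were fitted, the SE for Lhx2 was 0.0625 in place of 0.30. The Rax values of day 5, given above, all lay below those of day 4. Pax6, the homeobox gene often called the master regulator of the eye, rose by 0.97 ± 0.24 (limma adjusted p = 0.0104), from 8517 ± 646 to 16879.6 ± 3334 normalized counts (SD, n = 3 each). Six3, a repressor of Wnt signalling in the anterior forebrain, had 12441, 13426 and 12578 on day 4 and 9559, 8461 and 8811 on day 5, without overlap, yet its log2 change of -0.52 ± 0.25 had a limma adjusted p of 0.247 in the fit over all 24 libraries and 0.00725 where the 6 libraries were fitted alone. For Otx2 the log2 change was 0.23 and for Tbx3 0.94, with limma adjusted p = 0.177 and 0.155. Tbx3 passed an adjusted p of 0.05 without replicate 1 of day 0, and its log2 change was 0.57 without replicate 1 of day 4.

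Of 20 neural retina progenitor genes 8 rose and 2 fell, and 6 were called higher, with a median of 0.59. Six6 and Nr2e1, given above, and Meis1, Zic1 and Nr2f1 were among those called. Zic1, a zinc-finger gene of the dorsal neural tube that is also transcribed in retinal progenitors, had 96.98, 162 and 99.9 on day 4 and 1274, 1945 and 1318 on day 5, a log2 change of 3.66 ± 0.47 (limma adjusted p = 1.81e-05). It rose in GFP-negative cells as well, by 4.57, and the test of the difference between the gates did not pass (limma adjusted p = 0.777). Meis1, a TALE homeobox cofactor upstream of Pax6 in eye development, had 442, 438 and 563 on day 4 and 2604, 2472 and 2778 on day 5 (2.45 ± 0.27, limma adjusted p = 2.45e-06). Nr2f1 (COUP-TFI) had 822, 923 and 1000.4 on day 4 and 5398, 4479.8 and 5358 on day 5 (2.47 ± 0.46, limma adjusted p = 0.000998), and its call was kept in 0 of the 6 fits without 1 library. Sox8 rose by 1.97 and the Wnt antagonist Sfrp2 by 0.71. Sox2 fell by 0.64, from 11787 ± 667 to 7564 ± 401 (SD, n = 3 each), and Vsx1, a homeobox gene of later bipolar cells, fell by 1.27 at a low level, with 34.1, 23.8 and 30.05 on day 4 and 10.9, 11.7 and 11.8 on day 5. The remaining members lay between -0.38 for Sox9 and 0.62 for Nr2f2, and 10 in all passed in neither direction, among them Rorb (0.60), Hes1 (0.30), Hes5 (-0.36), Ccnd1 (0.26), Meis2 (0.59), Id3 (0.17) and Fgf15 (-0.28).

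The retinal pigment epithelium is the pigmented layer behind the retina, and Mitf is the transcription factor at the head of its program. Of 17 measured genes of this tissue, 3 rose, 2 fell and 12 passed in neither direction, with a median of 0.17. The 3 were Mitf, its target Trpm1 and Bmp4. Mitf (ENSMUSG00000035158, chromosome 6 from 97807052 to 98021349) had 84.6, 80.6 and 83.9 on day 4 and 594, 657 and 803 on day 5, an increase in the mean of 8.25-fold (3.02 ± 0.22, limma adjusted p = 1.09e-08). Trpm1 (ENSMUSG00000030523, chromosome 7 from 64153835 to 64269775), a cation channel gene first described in melanocytes, had 11.7, 15.4 and 7.16 on day 4 and 123, 229 and 176 on day 5 (3.85 ± 0.57, limma adjusted p = 9.81e-05). The pigment enzyme genes were at low levels. Tyrosinase (Tyr) had 5.62, 6.36 and 10.2 on day 4 and 6.29, 7.72 and 4.48 on day 5, and Tyrp1 had 16.9, 16.3 and 21.8 on day 4 and 25.8, 19.3 and 17.3 on day 5. Dct, which did not pass the filter on low values, was at 0 to 2.27 on day 4 and at 9.94 to 24.6 on day 5. Mlana (-1.68), with at most 3.65 normalized counts in any of the 6 libraries, and the gap-junction gene Gja1 (-0.85) fell. The other members were Otx1 (-0.80), Otx2 (above), Pmel (-0.28), Slc45a2 (1.19), Tfec (0.36), Wnt2b (-0.02), Rlbp1 (-0.44), Ttr (1.12), Gpnmb (0.24) and Best1 (0.17), none past the threshold. The test for the log2 fold change of Otx1 depended on the libraries fitted, with a limma adjusted p of 0.152 over all 24, 0.014 over the 6 compared, 0.000734 over the 12 sorted and 0.0274 without replicate 1 of day 0.

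Mitf binds the hexamer CATGTG, an E-box variant found in promoters of pigment cell genes, so the start-site windows of these genes were read from RefSeq sequence (GRCm38.p6, 250 bases before to 50 after the start). The hexamer, searched on both strands, was present in 5 of the 12 windows found for the 17 measured genes, where 11.3% of the 13997 genes tested that had a window (of 20830 symbols) held it. It was also in the windows of Dct, Oca2 and Rpe65, which were not tested. Over the genes called in this comparison it was in 8 of 83 windows of those called higher (9.64%) and in 20 of 137 of those called lower (14.6%). The stretches around it are shown for Trpm1, which rose, and for 3 pigment genes, of which Tyr and Tyrp1 did not pass the test, with the hexamer in capitals, 5′ to 3′ on the gene's strand.
Trpm1 (chr7:64153664-64153729, plus strand): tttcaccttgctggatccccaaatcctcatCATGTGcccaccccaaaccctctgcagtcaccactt
Tyr (chr7:87493513-87493563, minus strand): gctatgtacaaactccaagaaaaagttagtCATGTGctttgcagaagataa
Tyrp1 (chr4:80834137-80834202, plus strand): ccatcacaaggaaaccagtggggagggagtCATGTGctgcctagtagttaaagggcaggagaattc
Dct (chr14:118052361-118052426, minus strand): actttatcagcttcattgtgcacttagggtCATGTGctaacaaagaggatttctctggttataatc
The same 6 letters stood 141 bases before the start of Trpm1, 21 before that of Tyr, 46 before that of Tyrp1 and 150 before that of Dct, where a further match on the other strand began 232 bases before the start, so the hexamer was found both in Trpm1, which rose, and in Tyr and Tyrp1, which did not pass the test. A match of letters is no measured binding site.

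Both Trpm1 and its relative Trpm3 (ENSMUSG00000052387, chromosome 19 from 22139046 to 22995410) were called higher, and each hosts a microRNA gene on its own strand. Trpm3 had 17.4, 14.6 and 11.4 on day 4 and 111, 182 and 169 on day 5 (3.31 ± 0.56, limma adjusted p = 0.000346). The libraries were made from polyadenylated RNA and give no value for the microRNAs, and these are shown because the mature 5p products of the 2 host genes share their seed, bases 2 to 8, in capitals. A further host called in the comparison, the long non-coding RNA Mir9-3hg, was lower.
miR-204-5p (Mir204, within Trpm3, chr19:22750610-22750631, plus strand): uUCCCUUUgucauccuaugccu
miR-211-5p (Mir211, within Trpm1, chr7:64205831-64205852, plus strand): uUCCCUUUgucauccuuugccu
miR-9-5p (Mir9-3, within Mir9-3hg, chr7:79505279-79505301, plus strand): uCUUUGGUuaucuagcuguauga
Mir9-3hg had 215, 133 and 129 on day 4 and 30.6, 28.8 and 23.5 on day 5 (-2.45 ± 0.24, limma adjusted p = 6.84e-07). It also fell in GFP-negative cells, by 1.65 on the log2 scale. The calls of Trpm1 and Trpm3 were kept in 4 and 0 of the 6 fits without 1 library, and both rises in all 6.

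Of 25 genes that pattern the dorsal, ventral, nasal and temporal sides of the optic vesicle, 10 rose, 4 fell and 6 were called higher (median 0.64). On the ventral side, Vax2 (ENSMUSG00000034777, chromosome 6 from 83711264 to 83738313), a homeobox gene of the ventral retina, had 11.4, 10.1 and 11.2 on day 4 and 201, 189 and 248 on day 5, a log2 change of 4.16 ± 0.42 (limma adjusted p = 9.67e-07). Aldh1a3 (ENSMUSG00000015134, chromosome 7 from 66390890 to 66427517), the retinaldehyde dehydrogenase of the ventral retina, had 91.4, 77.6 and 66.9 on day 4 and 893, 808 and 944 on day 5 (3.48 ± 0.30, limma adjusted p = 7.82e-08). Among dorsal genes Bmp4, Tbx5 and Aldh1a1 rose. Bmp4, the dorsal ligand, had 217, 267 and 308 on day 4 and 1569.5, 1383 and 1331 on day 5 (2.44 ± 0.20, limma adjusted p = 6.28e-08), the dorsal factor Tbx5 rose by 1.87 at a low level, with 10.1, 13.8 and 11.4 on day 4 and 37.5, 63.5 and 38.9 on day 5, and Aldh1a1, the dorsal retinaldehyde dehydrogenase, had 15.3, 16.7 and 25.5 on day 4 and 129, 149.6 and 133 on day 5 (2.81 ± 0.46, limma adjusted p = 0.000245). Foxd1, a forkhead gene of the temporal retina, rose by 2.01 ± 0.40 (limma adjusted p = 0.00163), from 196 ± 20.1 to 800.2 ± 141 normalized counts (SD, n = 3 each). Hmx1, of the nasal retina, rose by 2.27 and the temporal receptor gene Epha5 by 1.98.

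The 4 members that fell in GFP-positive cells were Aldh1a2, Cyp26a1, Efnb2 and Ephb3. Cyp26a1 and Efnb2 each kept an adjusted p under 0.05 in 4 of the 6 fits without 1 library, the others in all 6. Aldh1a2, the retinaldehyde dehydrogenase of the early optic vesicle and of mesenchyme, had 1918, 2233 and 1886 on day 4 and 572, 542 and 623 on day 5, a change of -1.79 ± 0.42 (limma adjusted p = 0.00692), and Cyp26a1, which breaks down retinoic acid, fell from 93.99 ± 41.6 to 19.2 ± 6.51 (SD, n = 3 each) by 2.19 (limma adjusted p = 0.00968). The 3 synthetic enzymes of retinoic acid thus moved in different directions, 2 up and 1 down. Ephrin-B2 (Efnb2), of the dorsal retina, fell by 0.60 from a mean of 21129 ± 1328 (SD, n = 3), and its receptor gene Ephb3 by 0.72. Neither direction was passed by Tbx3, Efnb1 (0.27), Vax1 (0.75), Ephb2 (0.17), Cyp26c1 (-0.18), Epha3 (0.03), Efna2 (0.00), Efna5 (0.41), Bmpr1b (0.64), Chrd (-0.03) and Bambi (-0.34).

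Among 14 optic stalk genes 3 rose, Vax2, Nr2f1 and Shh, and 2 fell, Ntn1 and Zic2 (median 0.42). Sonic hedgehog (Shh), the ventral midline signal, had 2.27, 4.58 and 2.58 on day 4 and 28.2, 19.6 and 32.6 on day 5, a change of 2.76 ± 0.60 (limma adjusted p = 0.00362) at a low level, and the guidance cue Ntn1 had 4581, 4491 and 4772 on day 4 and 1921, 1456 and 1713 on day 5 (-1.45 ± 0.33, limma adjusted p = 0.00527). Pax2, the paired-box gene of the stalk, had 3163, 3426 and 3275 on day 4 and 4613, 4363 and 4159.6 on day 5, without overlap of the days, with a limma adjusted p of 0.646 for its change of 0.41. The adjusted p for the log2 fold change of Pax2 was 0.0102 where only the 6 libraries compared were fitted and 0.0493 with the 12 sorted libraries. Hedgehog targets Gli1 (0.67) and Ptch1 (0.42) passed in neither direction, nor did Vax1, Nr2f2, Fgf8 (0.34), Slit1 (-0.15), Sema5a (0.04) and Nkx2-1 (-1.61). With only the 12 sorted libraries Gli1, Ptch1, Vax1, Nr2f2 and Nkx2-1 passed an adjusted p of 0.05, Nkx2-1 also with a pseudocount of 5. Over 19 Hedgehog pathway genes 2 rose and 1 fell. The receptor gene Cdon (1.15) was the other that rose, and Scube2 (-1.42), which helps to release the ligand, the one that fell. In GFP-negative cells 5 of the 14 optic stalk genes rose and 1 fell (median 0.14). Of the 19 Hedgehog genes 8 rose there and none fell (median 0.63).

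**Figure D2:**
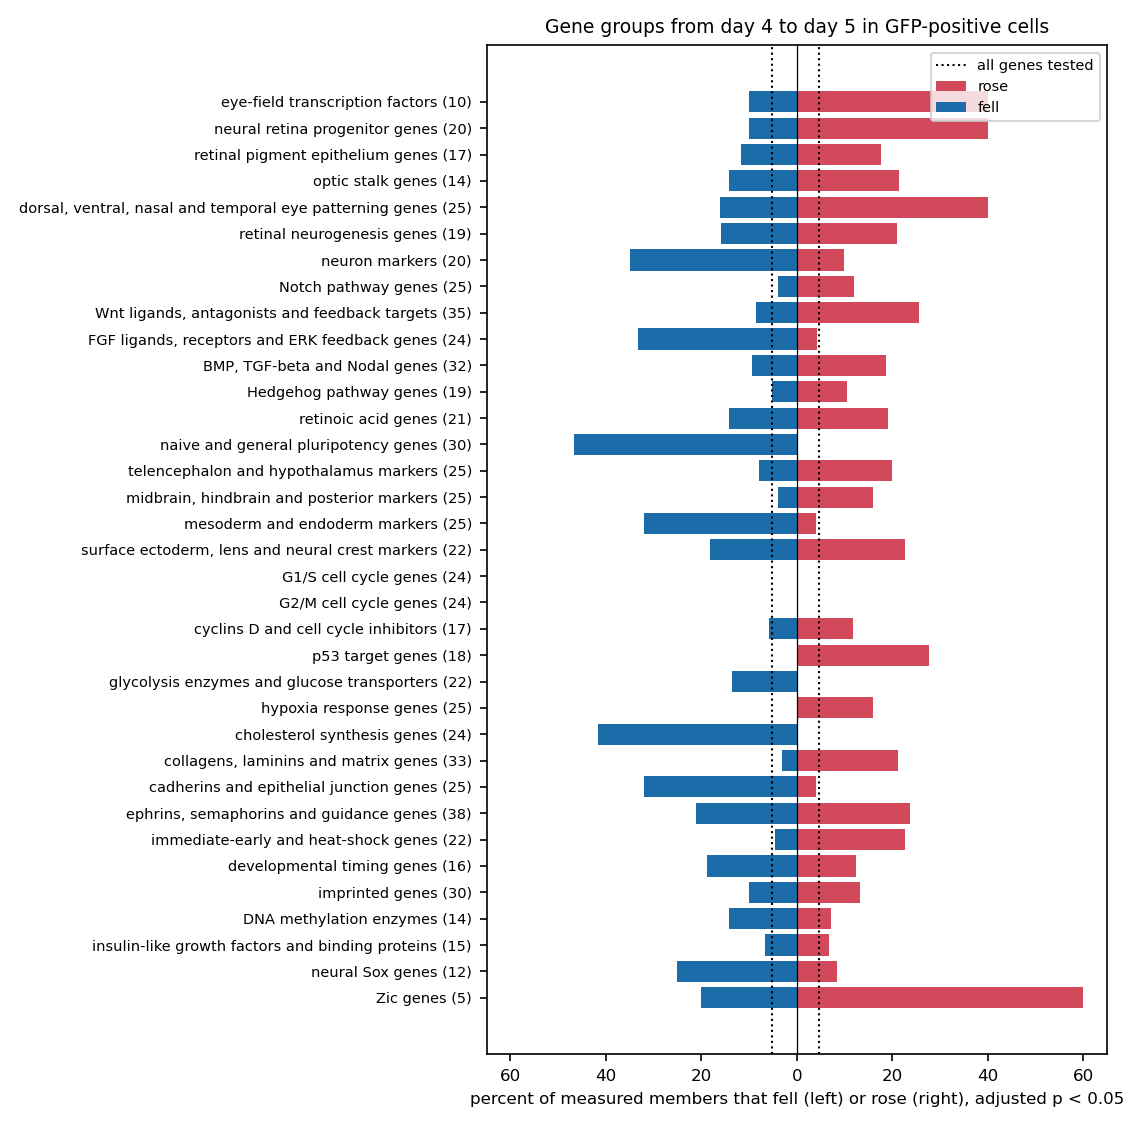
Percent of the measured members of each gene group (number in brackets) that fell (blue, left) or rose (red, right) from day 4 to day 5 in GFP-positive cells at a limma adjusted p under 0.05. Dotted lines mark the share over all genes tested, 5.24% down and 4.57% up. Pluripotency and cholesterol synthesis genes have members that fell and none that rose, and the 2 cell cycle groups have neither.

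BMP ligand genes were among those called. Of 32 BMP, TGF-beta and Nodal genes 6 rose, 3 fell and 3 were called higher, the ligands Bmp4, Bmp7 and Gdf6. Of the 6 rises, 3 were kept in all 6 fits without 1 library. Bmp7 had 1101, 1236 and 1340.0 on day 4 and 3722, 3538 and 3825 on day 5 (1.595 ± 0.14, limma adjusted p = 9.55e-08), and Gdf6, a BMP ligand of the dorsal eye, had 4.54, 12.8 and 10.3 on day 4 and 54.5, 65.6 and 61.5 on day 5 (2.69 ± 0.45, limma adjusted p = 0.00035). The antagonist Fst rose by 1.95, and BMP-responsive Msx1 by 1.21. The members that fell belong to the Nodal branch, the Nodal feedback inhibitors Lefty1 (-1.16) and Lefty2 (-2.56) and the co-receptor gene Tdgf1 (-1.62), of which Lefty2 was called lower. In the wider list of 21 retinoic acid genes 4 rose and 3 fell. Beside the enzymes above, the binding protein gene Crabp1 (1.14) and the retinol receptor gene Stra6 (1.09) rose, and the nuclear receptor gene Rarg fell (-0.90).

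Wnt genes rose more often than they fell, 9 against 3 of 35. Wnt7b had 166, 213 and 261 on day 4 and 1336, 1187 and 1376 on day 5 (2.62 ± 0.36, limma adjusted p = 3.64e-05), and the stem cell receptor gene Lgr5, a Wnt target, had 185, 106 and 132 on day 4 and 743, 656 and 726 on day 5 (2.36 ± 0.40, limma adjusted p = 0.000406). The secreted factor Dkk3 had 226, 221 and 275 on day 4 and 1032, 936 and 1135 on day 5 (2.10 ± 0.21, limma adjusted p = 5.55e-07). Wnt1 (2.90), Wnt5a (1.36), Wnt8b (2.01) and the antagonist Wif1 (2.32) rose too, while Wnt7a was listed at 0 in the 3 libraries of day 4 and at 2.51 to 6.21 on day 5. Wnt8a, a ligand of the early embryo, and the antagonist Sfrp5 were called lower, Sfrp5 with 66.02, 62.3 and 55.8 on day 4 and 14.6, 11.9 and 8.14 on day 5 (-2.35 ± 0.25, limma adjusted p = 1.68e-06). Both calls were lost where only the 6 libraries compared were fitted, and that of Wnt8a also with a pseudocount of 5. Fzd5, the Wnt receptor gene of the eye field, fell from 18784, 19862 and 17607 to 10859.5, 8133 and 10684 (-0.93 ± 0.23, limma adjusted p = 0.0104).

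FGF and ERK feedback genes fell more often than they rose, 8 against 1 of 24. Fgf5, a marker of the epiblast, had the largest fall of all called genes, from 248, 284 and 246 to 16.3, 7.99 and 9.55 (-4.46 ± 0.21, limma adjusted p = 2.91e-11). The ERK phosphatase gene Dusp4 had 2753, 3017 and 2548 on day 4 and 888, 703 and 777 on day 5 (-1.81 ± 0.20, limma adjusted p = 2.84e-06). Fgf3, Fgf4, Fgfr2, Spry1, Spry2 and Spry4 fell by 0.35 to 1.58 on the log2 scale. The exception, the ERK-responsive factor gene Etv5, had 450.4, 858 and 607 on day 4 and 1037, 1056 and 1039 on day 5, a change of 0.76, which kept its adjusted p under 0.05 in 1 of the 6 fits without 1 library. In the Notch pathway 3 of 25 rose (Maml2, Dlk1 and the feedback gene Nrarp, by 0.54 to 0.95) and Mfng fell by 0.62. Of these, only the rise of Maml2 was kept in all 6 fits without 1 library, and Dlk1 was kept in 5, Nrarp in 3 and Mfng in 3.

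Pluripotency genes were the group with the largest share of members that fell, 14 of 30, with none that rose and a median of -0.95. Pou5f1 (Oct4, ENSMUSG00000024406, chromosome 17 from 35506018 to 35510772) had 811, 1005 and 560.0 on day 4 and 63.7, 82.8 and 83.7 on day 5, a 10.3-fold lower mean (-3.32 ± 0.18, limma adjusted p = 2.87e-10). Utf1, an epiblast chromatin factor, had 291, 583 and 208 on day 4 and 43.96, 54.2 and 45.2 on day 5 (-2.76 ± 0.26, limma adjusted p = 3.37e-07), and day 4 replicate 2 was the highest of its group, as it was for Pou5f1. Dppa4, L1td1 and Dnmt3l were called lower too, by 2.08 to 2.43. Nanog had 133, 214 and 129.7 on day 4 and 64.4, 78.6 and 50.9 on day 5 (-1.27 ± 0.20, limma adjusted p = 0.000148). Of the genes that progenitor cells also use, Sall4 changed by -1.34, Sox2 by -0.64 and the RNA-binding protein gene Lin28a by -0.38, the last from a mean of 48241 ± 599 (SD, n = 3) and with its adjusted p above 0.05 in each of the 6 fits without 1 library. Nanog, Pou5f1, Zfp42 and Esrrb were higher in each GFP-negative library than in each GFP-positive one, and Pou5f1 had there 7449.6, 6176 and 7636 on day 4 and 1538, 1193 and 1094 on day 5. The part that GFP-negative or undifferentiated cells within the gate have in these falls was not tested.

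Of 25 measured cadherin and epithelial junction genes, a list that also holds the splicing regulator gene Esrp1, 8 fell and 1 rose (Pcdh19, 1.15). E-cadherin (Cdh1) had 822, 1121 and 704 on day 4 and 123, 159.7 and 178 on day 5 (-2.50 ± 0.29, limma adjusted p = 4.43e-06), and Epcam had 556, 652 and 544 on day 4 and 141, 163 and 119 on day 5 (-2.05 ± 0.12, limma adjusted p = 4.99e-10). The epithelial splicing regulator Esrp1 had 1086, 1110.3 and 933 on day 4 and 103, 91.7 and 96.9 on day 5, lower by 3.41 on the log2 scale (limma adjusted p = 1.09e-08). Claudin genes Cldn3, Cldn5, Cldn6 and Cldn7 and the occludin gene Ocln made up the rest, of which Cldn5 was called lower. Of 14 DNA methylation genes 2 fell and 1 rose. The de novo methyltransferase gene Dnmt3b had 15731, 16196 and 14395 on day 4 and 5577, 5591 and 5751 on day 5 (-1.45 ± 0.29, limma adjusted p = 0.00188) and Dnmt3l 265, 422 and 264 on day 4 and 72.3, 64.7 and 73.8 on day 5 (-2.12 ± 0.18, limma adjusted p = 7.53e-08), while Mbd2 rose by 0.69.

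Of 24 cholesterol synthesis genes 10 fell and none rose, with a median of -0.39. Values of day 5 lay below those of day 4 without overlap in 19 of 24, against 15.8% of all genes tested. Of the 10 falls, 5 were kept in all 6 fits without 1 library. None of them reached the fold change needed for a call. Squalene epoxidase (Sqle) had 10405, 11240.0 and 10666 on day 4 and 7562, 7295 and 8400.3 on day 5 (-0.48 ± 0.09, limma adjusted p = 0.00065), and the farnesyl diphosphate synthase gene Fdps had 14033, 13467 and 11677 on day 4 and 9210.0, 7712 and 10041 on day 5 (-0.54 ± 0.15, limma adjusted p = 0.0257). The 2 groups of libraries did not overlap for either gene. Hmgcs1, Fdft1, Lss and Stard4 fell by 0.42 to 0.65. In GFP-negative cells none of the 24 fell, 2 rose and the median was 0.14. The difference between the gates itself passed an adjusted p of 0.05 for 2 of the 24.

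Sterol-responsive promoters carry the sterol regulatory element TCACNCCAC, which was searched on both strands in the same RefSeq windows. It was present in 1 of the 16 windows found for this group, that of Hmgcs1, and in 1.44% of the windows of the genes tested. The stretch with the element in capitals is shown because Hmgcs1, the synthase gene at the start of the pathway, fell by 0.61, from 32147, 34433 and 33538 to 21776, 22058 and 21913 (limma adjusted p = 0.0159).
Hmgcs1 (chr13:119690184-119690252, plus strand): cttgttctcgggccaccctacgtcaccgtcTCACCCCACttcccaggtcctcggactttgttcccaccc
Its absence from another window says only that these letters are not there.

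Of 22 glycolysis and glucose transporter genes 3 fell, Slc2a1 (-1.13), Slc2a3 (-0.53) and Pfkl (-0.54), and none rose (median -0.11), but only the fall of Slc2a1 was kept in all 6 fits without 1 library, that of Slc2a3 in 2 and that of Pfkl in 4. The main glucose transporter gene Slc2a1 (GLUT1) had 51985, 52974 and 49188 on day 4 and 25071, 24011 and 21344 on day 5 (limma adjusted p = 0.00105). Hypoxia response genes rose in 4 of 25, with none that fell, led by Vegfa with 1321, 1290.3 and 1383 on day 4 and 3261, 4001 and 2703 on day 5 (1.30 ± 0.15, limma adjusted p = 4.00e-06), and Pdk1, Mxi1 and Bhlhe40 rose by 0.44 to 1.02. Of the growth factor group, 1 of 15 rose and 1 fell. Igfbp5, an IGF-binding protein gene of the neural tube, had 4544, 4876 and 5669 on day 4 and 34079.7, 29014 and 27058 on day 5, and was the called gene with the highest mean level among those that were higher (2.58 ± 0.25, limma adjusted p = 4.50e-07).

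No cell cycle gene passed the test, of 24 G1/S and 24 G2/M genes, with medians of -0.11 and 0.01. In 10 of the G1/S genes the values of day 5 lay below those of day 4 without overlap, against 15.8% of all genes tested. Among D-type cyclins and inhibitors 2 of 17 rose, Cdkn1a (0.63) and Cdkn2c (1.33), and Gadd45a fell by 0.35. Of 18 p53 target genes 5 rose, by 0.46 to 1.08, with 2 of these kept in all 6 fits without 1 library, and none fell. Immediate-early and heat-shock genes, which dissociation can induce, rose in 5 of 22, again with 2 kept, and fell in 1. Jun had 650.0, 584 and 589.9 on day 4 and 2359, 1154 and 779.8 on day 5, so that day 5 replicate 1 was the highest, and its rise was kept in 2 of the 6 fits without 1 library.

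Neuron genes fell more often than they rose, 7 against 2 of 20. Elavl3, a neuronal RNA-binding protein gene, was called lower, with 635, 601 and 547 on day 4 and 146, 161 and 145 on day 5 (-1.97 ± 0.15, limma adjusted p = 1.50e-08), and Tubb3, the neuronal tubulin, had 3884, 3737 and 3315 on day 4 and 1759, 1567 and 1739 on day 5 (-1.11 ± 0.12, limma adjusted p = 1.52e-06). Stmn2, Stmn3, Gap43, Ina and Cntn2 fell by 0.57 to 1.64, and Ank3 and Elavl4 rose by 0.90 and 1.00. Proneural and retinal neurogenesis genes moved in both directions, 4 of 19 up and 3 down. Neurog2, a proneural factor, had 63.7, 52.2 and 49.8 on day 4 and 9.11, 7.89 and 9.95 on day 5 (-2.49 ± 0.46, limma adjusted p = 0.00081) and was called lower, and 2 genes of this group were called higher. Prdm1 (Blimp1), known from photoreceptor precursors and from the germline, had 136, 113 and 90.6 on day 4 and 12.6, 8.51 and 15.7 on day 5 (-3.12 ± 0.25, limma adjusted p = 4.02e-08). Prox1, a homeobox gene of lens and retina, had 350.4, 366 and 387 on day 4 and 1195, 1089 and 1107 on day 5 (1.62 ± 0.20, limma adjusted p = 1.06e-05). Olig2 and Pou4f1 rose and Insm1 fell.

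Summed levels of mesoderm and endoderm and of midbrain, hindbrain and posterior markers were lower within the gate than outside it on both days. Mesoderm and endoderm genes fell in 8 of 25, with 4 of these falls kept in all 6 fits without 1 library, and rose in 1, the receptor gene Kdr, and their sum over 25 genes was 1151 to 2407 on day 4 and 1911 to 2492 on day 5, against 12749 to 20619.9 and 13059 to 17244 in GFP-negative cells. Kdr had 45.1, 100.2 and 157 on day 4 and 772, 668 and 638 on day 5 (2.93 ± 0.41, limma adjusted p = 4.23e-05), whereas the endothelial and blood markers Cdh5 and Tal1 were at no more than 21.4 in each of the 6 libraries. A further endothelial marker, Pecam1, was at 57.6 to 64.05 on day 4 and at 42.8 to 178 on day 5. Mixl1 (-2.29), Mesp1 (-2.59) and Eomes (-1.88) fell. Of 25 telencephalon and hypothalamus markers 5 rose and 2 fell, Barhl2 (2.81), Dmrta2 (1.44) and Sim1 (3.22) among the former and Lhx5 (-1.29) among the latter. Midbrain, hindbrain and posterior markers rose in 4 of 25 and fell in 1. En2 had 26.1, 46.7 and 45.5 on day 4 and 111, 130.2 and 116 on day 5 (1.61 ± 0.19, limma adjusted p = 6.12e-06), with 447 to 1439 in GFP-negative cells, and the sum of this group over 25 genes was 4334 to 4884 on day 4 and 5761 to 6515 on day 5, against 10674 to 18589 in GFP-negative cells. The part of such cells in the values of the gate was not tested.

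Surface ectoderm, lens and neural crest markers changed in 9 of 22, 5 up and 4 down, with 3 of each kept in all 6 fits without 1 library. Foxe3, a forkhead gene of the lens, had 1.14, 3.64 and 0.857 on day 4 and 50.5, 45.9 and 65.8 on day 5 (4.36 ± 0.43, limma adjusted p = 6.17e-07), and the crest genes Foxd3 (-1.53), Snai1 (-1.62) and Sox10 (-1.33) fell. Of 12 neural Sox genes 1 rose and 3 fell, Sox21 by 0.76 and Sox13 by 0.64, and of 5 Zic genes 3 rose and 1 fell.

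Matrix genes rose in 7 of 33, 4 of them in all 6 fits without 1 library, and 1 fell. Col11a1 had 359, 359 and 300.3 on day 4 and 1459.8, 1291 and 1354 on day 5 (2.01 ± 0.23, limma adjusted p = 3.27e-06) and Col9a1, a collagen of the vitreous, 297, 318 and 311 on day 4 and 1410.3, 1336 and 1611 on day 5 (2.23 ± 0.38, limma adjusted p = 0.000416). In GFP-negative cells 21 of the 33 matrix genes rose and none fell, with a median of 1.11 against 0.34 in GFP-positive cells. Guidance genes of GFP-positive cells were split, 9 of 38 up and 8 down, of which 5 and 7 were kept in all 6 such fits. Unc5b, a netrin receptor gene, had 1419.7, 1739 and 1739.9 on day 4 and 5949, 5229 and 6874 on day 5 (1.88 ± 0.28, limma adjusted p = 0.000112), and Robo2, a Slit receptor gene, 85.1, 144 and 171 on day 4 and 532, 616 and 709 on day 5 (2.25 ± 0.42, limma adjusted p = 0.000852), whereas its relative Robo3 was called lower, with 3385, 3084 and 3109 on day 4 and 1298, 1059.7 and 696 on day 5 (-1.69 ± 0.30, limma adjusted p = 0.000678). Developmental timing genes rose in 2 of 16 (Hmga2, 1.08, and Myc, 0.99) and fell in 3 (Lin28a, Mycn and Nr6a1). Imprinted genes rose in 4 of 30, 1 of them in all 6 fits without 1 library, and fell in 3, and Grb10 was called lower (-1.73).

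Outside these groups, the largest rises with a gene name were those of Cp, Cntn6, Mab21l1, Apol7b and Nlgn1, beside Tbx2 and Six6. Ceruloplasmin (Cp), a copper-carrying ferroxidase, had 1.62, 10.2 and 6.46 on day 4 and 285, 215 and 298 on day 5 (5.46 ± 0.66, limma adjusted p = 7.55e-06), and Cntn6, a contactin of axons, 1.15, 2.79 and 7.33 on day 4 and 138, 176 and 151 on day 5 (5.25 ± 0.46, limma adjusted p = 1.01e-07). Mab21l1 (ENSMUSG00000056947, chromosome 3 from 55782510 to 55785001), which is needed for lens and eye growth, had 40.9, 47.6 and 55.8 on day 4 and 1680.5, 1469 and 1658 on day 5 (5.04 ± 0.43, limma adjusted p = 7.85e-08). Nlgn1, a synaptic adhesion gene, had 59.8, 81.7 and 53.5 on day 4 and 1471, 1419.8 and 1799 on day 5 (4.58 ± 0.50, limma adjusted p = 2.41e-06). Lrtm1, Cyp4v3, Atp6v1b1, Lrrn3, Plppr5 and the thyroid hormone receptor gene Thrb rose by 3.91 to 4.40 and were called, and Apol7b was listed at 0 in all 3 libraries of day 4 and at 29.2, 24.3 and 31.99 on day 5. Calls of Thrb, Atp6v1b1 and Apol7b were lost in each of the 6 fits without 1 library.

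The largest falls beside Fgf5, Esrp1, Pou5f1 and Prdm1 were those of Gmnc, Trappc3l and Foxd4. Gmnc, a regulator of multiciliated cells, had 23.9, 29.3 and 31.8 on day 4 and 0, 0 and 1.81 on day 5, and Trappc3l had 41.2, 29.6 and 24.3 on day 4 and 2.91, 0 and 0 on day 5, so that both were near 0 on day 5. Foxd4, a forkhead gene of the early neural plate, had 4752, 4035 and 3574 on day 4 and 266, 246 and 219 on day 5 (-4.07 ± 0.32, limma adjusted p = 3.01e-08). The prohormone convertase gene Pcsk2 had 705, 643 and 577 on day 4 and 51.2, 47.9 and 49.3 on day 5 (-3.67 ± 0.30, limma adjusted p = 5.87e-08), the crystallin gene Cryba1 261, 226 and 215 on day 4 and 27.1, 29.5 and 27.6 on day 5 (-3.01 ± 0.32, limma adjusted p = 1.48e-06) and the early embryonic gene Vrtn 357, 295 and 403 on day 4 and 39.1, 45.6 and 43.99 on day 5 (-2.997 ± 0.18, limma adjusted p = 7.17e-10). Wnt16, Mup6, Ms4a14, Slc26a5 and Nlrp4c were called lower as well, the last 4 from at most 25.5 normalized counts on day 4. The call of Wnt16 was lost in each of the 6 fits without 1 library.

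Abundant genes also took part. Among called genes with the highest means, the actin-bundling protein gene Pls3 had 33025, 31477 and 29782 on day 4 and 9308, 8461 and 8995 on day 5 (-1.82 ± 0.16, limma adjusted p = 1.66e-07), the kinase gene Pim2 10058, 9089 and 7829 on day 4 and 1239, 1422 and 1100.0 on day 5 (-2.84 ± 0.18, limma adjusted p = 3.45e-09) and Sall3 6402, 6417 and 6611 on day 4 and 1372, 1227 and 1309.9 on day 5 (-2.31 ± 0.23, limma adjusted p = 7.16e-07). The calcium-binding protein gene Necab2 had 1554, 1680.4 and 1932 on day 4 and 6901, 6106 and 8076 on day 5 (2.02 ± 0.15, limma adjusted p = 1.77e-08), the heparan sulfatase gene Sulf1 1748, 2259 and 2215 on day 4 and 5808, 5989 and 5994 on day 5 (1.52 ± 0.11, limma adjusted p = 1.05e-08) and Ndufa1, a subunit of respiratory complex I, 1616, 1528 and 1466 on day 4 and 3971, 6099 and 4956 on day 5 (1.68 ± 0.26, limma adjusted p = 0.000149).

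Not every call was kept when 1 library was left out. Of the 6 such fits, the calls of Col9a1, Neurog2, Nr2e1, Nr2f1, Robo2, Thrb, Trpm3, Wnt16, Apol7b and Atp6v1b1 were kept in 0, those of Aldh1a1, Gdf6, Lgr5 and Robo3 in 1, those of Ndufa1 and Snai1 in 2 and that of Eomes in 3. The calls of Cldn5, Lrtm1, Trpm1 and Unc5b were kept in 4 and those of En2 and Sulf1 in 5. Each of these genes kept an adjusted p under 0.05 in all 6 fits. Among smaller changes, an adjusted p under 0.05 was kept in 0 of the 6 fits by Lin28a, Mycn, Sox10 and Vsx1, in 1 by Etv5, Gadd45a, Pcdh19, Sox13 and Spry2 and in 2 by Bhlhe40, Elavl4, Fdps, Hmx1, Jun, Msx1, Slc2a3, Wnt7a and Zic2. It was kept in 3 by Insm1, Mfng, Nrarp and Stmn3, in 4 by Cyp26a1, Efnb2, Fst, Hmgcs1, Pax6, Pfkl, Stard4 and Tdgf1 and in 5 by Dlk1, Fzd5, Lss, Olig2 and Wnt5a. Where only the 6 libraries compared were fitted, Bmpr1b, Ccnd1, Efnb1, Gli1, Meis2, Nr2f2, Otx1, Pax2, Ptch1, Rlbp1, Six3 and Slc45a2 passed an adjusted p of 0.05, which they did not in the fit of all 24 libraries. In the same fit Bhlhe40, Elavl4, Eomes, Etv5, Fgf3, Fgf4, Gadd45a, Jun, Lefty1, Mixl1 and Tdgf1 no longer passed it, and the calls of many of the genes described here were lost, those of Aldh1a1, Cdh1, Cldn5, Cntn6, Cp, Dnmt3l, Dppa4, En2, Eomes, Epcam, Fgf5, Foxe3, Gdf6, Gmnc, Grb10, Kdr, Lefty2, Lgr5, Lrtm1, Ms4a14, Mup6, Ndufa1, Necab2, Neurog2, Nlrp4c, Plppr5, Pou5f1, Prdm1, Robo2, Robo3, Sfrp5, Slc26a5, Snai1, Sulf1, Trappc3l, Trpm1, Unc5b, Utf1, Wnt16, Wnt7b, Wnt8a and Zic1.

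Other settings moved single genes across a threshold. With only the 12 sorted libraries Bmpr1b, Efna5, Gli1, Meis2, Nkx2-1, Nr2f2, Otx1, Pax2, Ptch1, Rlbp1, Six3 and Vax1 passed an adjusted p of 0.05, and without replicate 1 of day 0 Bmpr1b, Gli1, Meis2, Otx1, Ptch1, Rlbp1 and Tbx3 did. Another pseudocount, filter, scaling or variance setting lost the rise or fall of Bhlhe40, Elavl4, Etv5, Gadd45a, Jun, Lin28a, Mlana, Mycn, Pcdh19, Slc2a3, Sox10, Sox13 and Vsx1 in at least 1 case and brought Bmpr1b and Nkx2-1 past the threshold. One or more of these settings or sample choices also lost the calls of Aldh1a1, Atp6v1b1, Cldn5, Col9a1, Eomes, Gdf6, Lefty2, Lgr5, Lrtm1, Neurog2, Nr2e1, Nr2f1, Robo2, Robo3, Snai1, Thrb, Wnt16 and Wnt8a and called Barhl2, Cntn2, Cyp26a1, Fgf4, Foxd1, Foxd3, Fst, Mesp1, Mlana, Olig2, Shh, Sim1, Wif1 and Wnt1. With 1 library left out, the log2 change of Tbx3 went down to 0.57, that of Jun to 0.64, that of Bhlhe40 to 0.65 and that of Rorb to 0.29, that of Fgf8 to 0.13 and that of Sox9 from -0.38 to -0.17, and Tfec ranged from 0.02 to 1.01. A pseudocount of 5 reduced the log2 changes of the low genes Apol7b, Atp6v1b1, Cldn5, Gmnc, Mlana, Ms4a14, Mup6, Nlrp4c, Sim1, Slc26a5, Slc45a2 and Trappc3l by more than 1.5 times.

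To ask which changes belonged to the gate and not to the day, the step from day 4 to day 5 was also fitted in GFP-negative cells. Their libraries are separate, but on each day the cells of both gates were sorted from the same organoid samples. The labels do not say which GFP-positive and GFP-negative libraries share a sample, and same-numbered ones did not deviate together throughout, with correlations of -0.108 to 0.023 on day 4 and -0.075 to 0.147 on day 5, so the fit treats them as independent. There 160 genes were called higher (0.762%) and 107 lower (0.509%), 267 in all, and 1202 genes rose (5.72%) and 935 fell (4.45%). The 267 calls became 160 without replicate 1 of GFP-negative day 4 and 171, 165 and 165 without replicates 1, 2 and 3 of GFP-negative day 5. The 2 gates shared 39 higher calls, 31.2% of those of GFP-positive and 24.4% of those of GFP-negative cells, and 50 lower calls, 26.7% and 46.7%, and no gene was called in opposite directions. Igfbp5, Wnt7b, Zic1, Cntn6 and Foxe3 were called higher and Pou5f1, Hesx1, Pim2, Epcam and Pcsk2 lower in both.

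The difference between the 2 steps, tested as an interaction, passed an adjusted p of 0.05 with a more positive step in GFP-positive cells for 111 genes (0.528%) and with a more negative one for 120 (0.571%). Of the 125 genes called higher 36 were among the former and 2 among the latter, and of the 187 called lower 25 were among the latter. Tbx2 changed by 0.31 in GFP-negative cells, where it had 32.9, 50.4 and 84.3 on day 4 and 89.3, 74.8 and 40.4 on day 5, and the difference of the steps was 4.93 (limma adjusted p = 0.000237). Vax2 (3.37, limma adjusted p = 0.00438), Aldh1a3 (2.87, limma adjusted p = 0.00085), Mitf (2.61, limma adjusted p = 9.64e-05) and Bmp4 (1.70, limma adjusted p = 0.00306) also rose by more within the gate, and each of these passed in all 12 fits that left out 1 of the sorted libraries. The difference for Trpm1 passed (3.57, limma adjusted p = 0.0302), but in 3 of those 12 fits only. Six6 was not shown to differ (2.46, limma adjusted p = 0.0725).

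Prdm1 had the most negative difference among called genes with a name, with 165, 218 and 239 on day 4 and 263, 199 and 248 on day 5 in GFP-negative cells (-3.32, limma adjusted p = 4.35e-05). Steps in opposite directions at an adjusted p under 0.05 were seen in 14 genes, of which 9 fell and 5 rose in GFP-positive cells. Sox21, a neural Sox gene, had 3806, 3946 and 4191 on day 4 and 2595, 2272 and 2182 on day 5 in GFP-positive and 1367, 1483 and 1768 and then 4353, 3627 and 4241 in GFP-negative cells (-2.17, limma adjusted p = 4.35e-05).

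**Figure D3:**
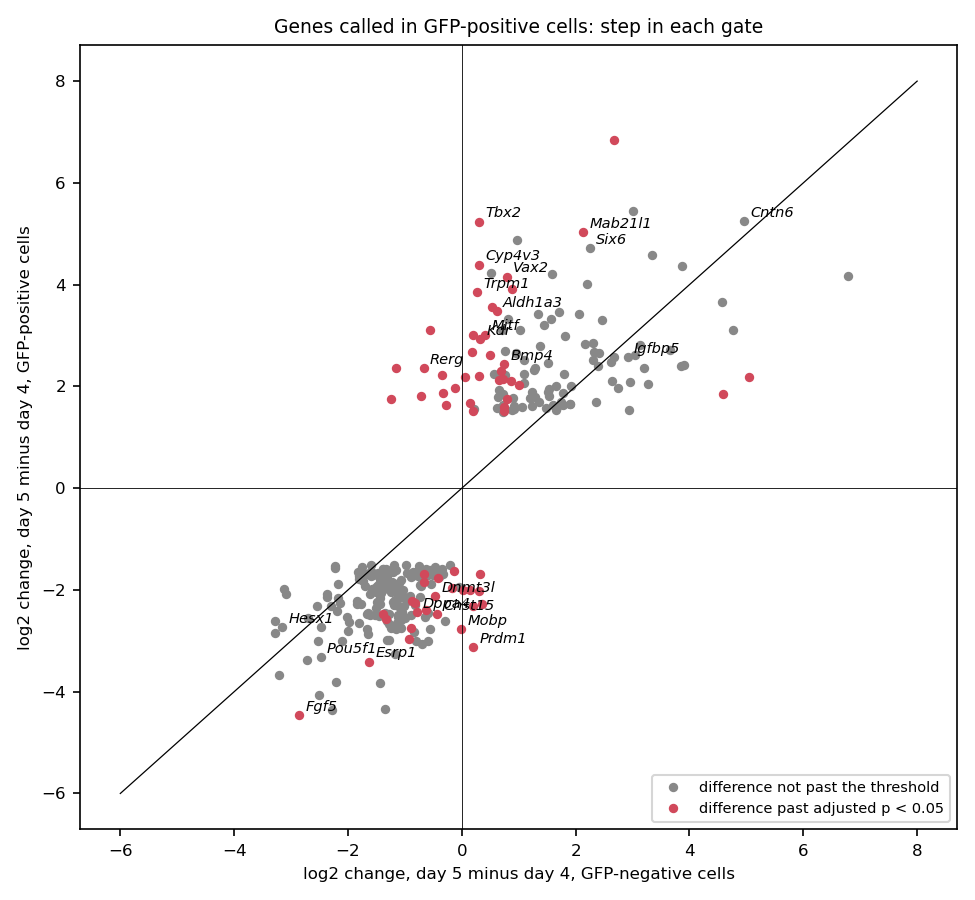
Log2 change from day 4 to day 5 in GFP-positive cells (vertical) against that in GFP-negative cells (horizontal) for the genes called in GFP-positive cells, from 3 libraries per group. Red points are genes whose difference between the gates passed a limma adjusted p of 0.05, and the diagonal marks equal steps. Tbx2, Vax2, Aldh1a3 and Mitf lie above the diagonal and below 1 on the horizontal axis, and Igfbp5, Cntn6 and Hesx1 lie close to it.

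Levels of earlier days place the 2 called sets on the time course, as values only, since these days share no sorting with the gate. Of the 125 genes called higher, 102 had their highest mean of days 0 to 3 and GFP-positive days 4 and 5 on day 5, and 11 on day 0. Of the 187 called lower, 30, 34, 36 and 49 had it on days 0, 1, 2 and 3 and 38 on day 4. Pou5f1 was at 23213 ± 5027 on day 3 and Fgf5 at 5267 ± 87.9 (SD, n = 3 each), and both were lower in GFP-positive cells of day 4 and lower again on day 5. Hesx1 and Foxd4 were highest on day 4, after 1092 ± 248 and 544 ± 58.6 on day 3 (SD, n = 3 each). Six6 and Mitf, at 22.4 ± 2.12 and 97.1 ± 16.8 on day 3 (SD, n = 3 each), were higher on day 5 than on each earlier day.

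**Figure D4:**
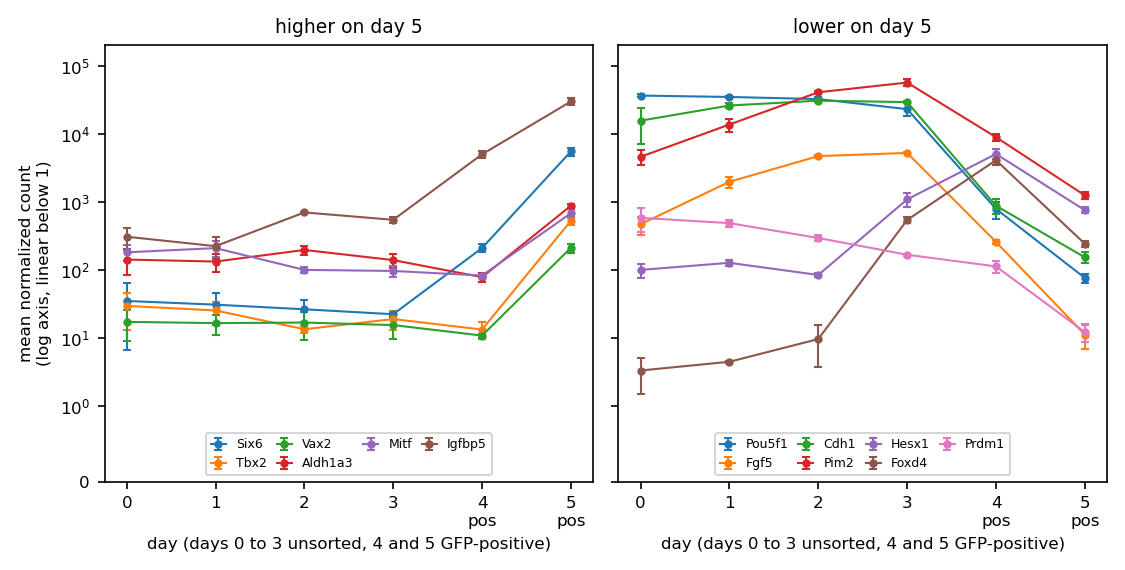
Mean normalized count (log axis, linear below 1) with SD over 3 libraries, from day 0 to day 3 in live cells and on days 4 and 5 in GFP-positive cells, for 6 genes called higher (left) and 7 called lower (right) from day 4 to day 5. Six6, Tbx2, Vax2, Aldh1a3, Mitf and Igfbp5 are highest on day 5, and Hesx1 and Foxd4 are highest on day 4, while Pou5f1, Fgf5, Cdh1 and Pim2 decline from day 3.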

How the data were processed

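RNA-seq libraries were made with the TruSeq kit from polyadenylated RNA and sequenced on a NextSeq 550. Per the labels and the methods of the study, the authors pseudo-aligned reads with kallisto 0.43.1 to Ensembl coding and non-coding RNA (mm10) and deposited a signal per gene, the abundance estimate divided by DESeq2 normalization factors. The DESeq2 version, the strand setting and the handling of shared reads are not given in the sources used here, which leaves values of antisense genes and of near-identical copies uncertain. Columns with calls made by the authors were not used. Of 49705 entries, 12092 were at 0 throughout, and all sample columns were assigned to samples (0 left over).

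The scale was log2(value + 1), and 21005 genes that reached 10 in 3 or more libraries were fitted with limma 3.58.1 in R 4.3.3 (lmFit on 8 group means over all 24 libraries, eBayes with trend, Benjamini-Hochberg adjustment within a contrast). Fold changes on this scale understate those of low genes. The median residual SD was 0.308. Groups came from the labels. Replicates were biological triplicates per the methods of the study. In each library the lowest values step by the worth of 1 read, 0.86 to 1.14 normalized counts in the 6 libraries, but the share of low values within 0.1 of a whole multiple was 45.6% to 75.1%, so whole reads were not recovered, count models were not run, and no counting interval is given. In simulated libraries for this contrast with 21005 genes, log2 changes of 1, 2 and 3 were planted in 67, 67 and 66 genes. They were called in 0%, 86.6% and 92.4% of these and passed the wider test in 70.1%, 97% and 98.5%. Of the other genes 0 were called and 15 passed the wider test. The 0% is no measure of recovery, since the planted change of 1 lies below the 1.5 needed for a call. Of the called genes, 30 of 125 higher had day 4 means under 10 and 65 of 187 lower had day 5 means under 10. Recovery was not assessed separately at such levels or for a spread that differs between groups. The shares and false calls therefore hold for the simulated libraries only. The members, the 35 gene lists, the motifs and the tests were chosen with earlier results of these data known. Named genes are the 15 largest rises and falls without overlap, the 5 most abundant called genes and the 5 smallest interaction p-values per direction, up to 4 members per direction of each list and all measured members of the first 5 lists, and a few others chosen after their values were seen, namely genes that complete a group, hosts of microRNAs and the thyroid hormone genes. Predicted genes are counted and not named, and results for several genes within the rule were left out here. Alternatives were the pseudocount, the filter, 2 scalings, the libraries fitted, the thresholds, the replicate number as a block and each library left out. Figures were drawn with matplotlib 3.10.9 in Python 3.11.15.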

Additional observations from a re-analysis of the deposited data

Results flagged for a closer look

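The step from day 4 to day 5 differed between the gates, by the interaction test (limma with Benjamini-Hochberg adjustment), for 38 of the genes named in the text or drawn in its figures. Over all 21005 genes tested it differed for 231, with 0.528% more positive and 0.571% more negative in GFP-positive cells. Some named genes were picked by this same test or after their values were seen, so the count of 38 is partly set by that choice. The value given for each gene is the log2 change in GFP-positive cells minus that in GFP-negative cells. Outliers within a group were not looked for, since each group holds 3 libraries.

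The step was more positive in GFP-positive cells for Tbx2 (4.93), Vax2 (3.37), Mab21l1 (2.90), Aldh1a3 (2.87), Mitf (2.61), Trpm1 (3.57), Bmp4 (1.70) and Bmp7 (0.86). It was also more positive for Kdr (2.61), Unc5b (2.21), Fzd5 (1.86), Dkk3 (1.23), Rerg (3.04) and Sulf1 (0.78), where Fzd5 fell in both gates and by more in GFP-negative cells. The same held for Cyp4v3 (4.09), Fam83f (3.51), Plppr5 (3.04), Dio3 (2.82) and B3gat2 (2.51) and for Ndufa1 (1.53), Tfap2c (1.14), Necab2 (1.02) and Pdk1 (0.80).

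The step was more negative in GFP-positive cells for Fgf5 (-1.61), Dppa4 (-1.64), Dnmt3l (-1.65), Esrp1 (-1.78) and Cldn5 (-2.63). It was also more negative for Fgf15 (-0.89), Spry1 (-1.19), Scube2 (-1.67), Epha7 (-1.27) and Epha3 (-3.05), of which Fgf15 and Epha3 did not pass the test within GFP-positive cells. The remaining genes were Sox21 (-2.17), Chst15 (-2.05), Pdzrn4 (-2.33), Mobp (-2.76) and Prdm1 (-3.32). Fam83f, Dio3, Spry1 and Dkk3 were chosen after their values were seen.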

How the results depend on the processing

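Fitting only the groups compared, 36 genes were called higher and 31 lower, 1548 rose, 679 differed between the gates and 105 were called in GFP-negative cells, with higher genes 53.7% of the calls. With only the 12 sorted libraries 1691 rose and 679 differed, and without replicate 1 of day 0, which was chosen as an alternative with earlier results known, 1598 rose and 653 differed. Testing against the fold threshold (limma treat) left 9 higher, 8 lower (52.9% higher) and 8 in GFP-negative cells, and an adjusted p under 0.05 with an absolute log2 change above 1 gave 459, 690 and 1041. The cause of these shifts was not tested. Leaving out 1 library at a time gave 69 to 91 higher and 128 to 162 lower calls, 612 to 717 rises, 763 to 911 falls, 154 to 186 differences between the gates and 160 to 192 calls in GFP-negative cells, and 56 of the 125, 113 of the 187, 492 of the 959 and 637 of the 1100 were kept in all 6 fits. Other pseudocounts, filters, scalings and variance settings kept each of these counts within 1.5 times.

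With the replicate number as a block, 118 were called higher, 175 lower, 948 rose, 1091 fell, 220 differed and 243 were called in GFP-negative cells. Same-numbered libraries of the 2 days did not deviate together (correlations of -0.028 to -0.01), so the numbers were not taken as pairs.

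Among genes whose step within GFP-positive cells did not pass, the sign of the log2 change turned for Wnt2b (0.020), Lhx2 (0.057) and Efna2 (-0.042) under quantile normalization and for Lhx2 (0.011) with equal library totals. With 1 library left out, values ranged over 0 for Tyr (-0.371 to 0.012), Chrd (-0.156 to 0.056), Sema5a (-0.132 to 0.195), Wnt2b (-0.176 to 0.113), Epha3 (-0.080 to 0.112), Lhx2 (-0.040 to 0.030) and Efna2 (-0.089 to 0.075). Low genes such as Tyr, Mlana and Wnt7a rest on a few reads per library.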

Other observations

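Genes of thyroid hormone handling, which were in no list and were singled out after their values were seen, rose in 2 of 4 cases in GFP-positive cells. The receptor gene Thrb had 18.7, 12.5 and 19.5 on day 4 and 347, 319 and 309.7 on day 5 (4.21 ± 0.76, limma adjusted p = 0.000718), and Dio3, whose enzyme inactivates the hormone, had 5.57, 10.1 and 5.25 on day 4 and 82.6, 45.1 and 60.7 on day 5 (3.01 ± 0.35, limma adjusted p = 5.05e-06). Both were higher on day 5 without overlap. The other receptor gene, Thra, had 1472, 1262 and 1331 on day 4 and 1321, 1244 and 1389 on day 5 (-0.04, limma adjusted p = 0.955), and Dio2, whose enzyme activates the hormone, had 28.4, 27.5 and 36.9 on day 4 and 32.7, 33.1 and 30.8 on day 5 (0.07, limma adjusted p = 0.969), and neither passed the test.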
